A study of Sus scrofa with 18 samples.

Results

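The 10 genes described here encode the chief folding helpers of the endoplasmic reticulum (ER) and regulators that act with them. They are the chaperones HSPA5, HYOU1 and HSP90B1, the lectin chaperones CANX and CALR, the disulfide isomerases PDIA3, PDIA4 and PDIA6, the degradation factor HERPUD1 and the transcription factor XBP1. They were found by name in the annotation columns of the array table, under their current symbol or an older one. All 10 genes were represented, by 24 of the 23999 probe sets tested, among 12511 named genes. HSPA5, PDIA6, HERPUD1 and XBP1 had 1 probe set each and the other 6 genes had between 2 and 6. PDIA3, PDIA4 and PDIA6 were found only under older names. Where a gene had several probe sets, the one with the highest mean over all arrays stood for the gene.

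Proteins that enter the secretory pathway or a membrane fold inside the ER, where Hsp70- and Hsp90-type chaperones hold unfolded chains, lectin chaperones bind chains that carry sugars, and disulfide isomerases form and rearrange disulfide bonds. When unfolded chains accumulate, HSPA5 leaves the sensors ERN1, EIF2AK3 and ATF6, and the unfolded protein response raises the transcription of chaperone and degradation genes. In skeletal muscle the same membrane system, as sarcoplasmic reticulum, also stores the calcium that drives contraction.

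The samples came from 5 female domestic piglets of 26.9 kg mean body weight, kept under isoflurane anaesthesia, ventilated and immobilized for 5 days as a model of the muscle wasting of critical illness. All animals received the muscle-paralysing drug pancuronium by infusion (0.1 mg/kg/h), boluses of the corticosteroid betamethasone at 0.1 mg/kg and Escherichia coli endotoxin at 36 µg/kg/h for 1 h. RNA of the masseter, a chewing muscle, was measured at day 1 (control) and day 5 in 5 animals, and RNA of the biceps femoris, a thigh muscle, at day 1 and day 5 in 4 animals of the same study, with 1 Affymetrix porcine array per sample, 18 in all. The title of the series asks why the chewing muscle is spared relative to the limb muscle, so the change from day 1 to day 5 was compared within each muscle and then between the muscles.

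Day 1 and day 5 masseter arrays of the same replicate number came from the same animal, whereas the biceps femoris labels do not name the animals. No day 5 arrays of animals without the drugs and endotoxin were given, so time and treatment cannot be told apart. For the biceps femoris day 1 arrays, titles and descriptions say control and other labels say treated; the titles were followed. Values are log2 intensities after RMA, so 1 unit is a 2-fold difference, and the number of arrays limits their precision. Each muscle had been normalized by itself, so levels are not compared between muscles, only changes. Arrays measure RNA of whole muscle, in which fewer cells of a type and less RNA per cell cannot be told apart. A gene was called when limma's adjusted p, by the Benjamini-Hochberg method over all 23999 probe sets, was under 0.05. The main fit took day 1 and day 5 arrays as independent groups, also in masseter. Its SE, intervals and adjusted p therefore leave out the pairing by animal, and the animal as a block was an alternative.

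Muscle fibre genes such as ACTA1, CKM, DES and MB were bright on every array, while the MYH2 probe set read near the bottom of the scale. The mean of the 18 fibre markers was 13.0 to 13.1 in masseter at day 1 and 12.4 to 12.8 at day 5. In biceps femoris it was 12.7 to 12.8 at day 1 and 11.7 to 12.2 at day 5. Of these markers 5 fell and 1 rose in masseter, and 5 fell in biceps femoris, among them the slow-fibre genes MYH7 (-2.94), TNNI1 (-3.47) and TNNT1 (-3.82). The mean of 11 fibroblast markers lay between 9.34 and 10.4 at day 1 and between 8.30 and 9.91 at day 5 in masseter, where 1 fell and none rose. In biceps femoris it lay between 9.80 and 10.5 at day 1 and between 8.20 and 9.41 at day 5, where 7 fell and none rose. Among 17 markers of macrophages and other leukocytes, 2 were called higher and 1 lower in masseter (array means 6.95 to 7.38 at day 1, 7.17 to 8.32 at day 5), and none was called in biceps femoris (6.89 to 7.59 and 7.10 to 7.54). None of 6 plasma and B cell markers was called in either muscle. In biceps femoris 3 of 10 endothelial and 3 of 8 pericyte and smooth muscle markers fell, and in masseter 1 endothelial marker rose and 1 pericyte and smooth muscle marker fell. In biceps femoris the BioC spike-in control read 8.87, 8.94 and 9.13 on day 1 replicates 1 to 3, against 7.97 on day 1 replicate 4 and 7.43 to 7.78 on the day 5 arrays. This technical set therefore overlaps with the day. Day 1 replicate 4 was the only day 1 array in the set of the day 5 arrays. With the set as a block, each biceps femoris change therefore rests on that 1 day 1 array. A call lost in this fit may reflect the set or the lost replication, which cannot be told apart. Values or counts with this block are given where it changes a call. The part of the markers and of this set in the results below was not tested beyond those values.

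By day 5, 3 of the 10 genes had risen in masseter (XBP1, PDIA6 and CANX) and 2 had risen in biceps femoris (XBP1 and PDIA6), and none had fallen in either muscle. Across all named genes, 9.22% were called higher and 8.17% lower in masseter, and 13% were called higher and 9.06% lower in biceps femoris. The median change of the 10 genes was 0.48 in each muscle, against -0.02 and -0.01 for all named genes in masseter and biceps femoris. Of the 10 genes, 8 had a change above 0 in masseter and 9 in biceps femoris, against 47.7% and 48.4% of all named genes. The biceps femoris median was 0.19, with 8 genes above 0, without day 5 replicate 1, and 0.31 with array weights, both computed after seeing the data. All day 5 arrays lay above all day 1 arrays for 4 of the 10 genes in masseter (HSP90B1, CANX, PDIA6 and XBP1), against 7.12% of all named genes. In biceps femoris this held for PDIA6 alone, against 15.2% of named genes. The classical stress chaperones HSPA5, HSP90B1 and HYOU1 were not called in either muscle, with some day 5 arrays several-fold above day 1 and others near the day 1 level. At an unadjusted p under 0.05, 6 genes passed in masseter and 2 in biceps femoris. The share of all named genes at that unadjusted threshold was not computed, so these counts have no background beside them. With the animal as a block 2 genes were called in masseter. The count was also 2 with a trended robust variance prior and in 1 fit of all 18 arrays. With the spike-in sets as a block limma called 0 genes in biceps femoris, with 1 gene at an unadjusted p under 0.05.

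**Figure D1:**
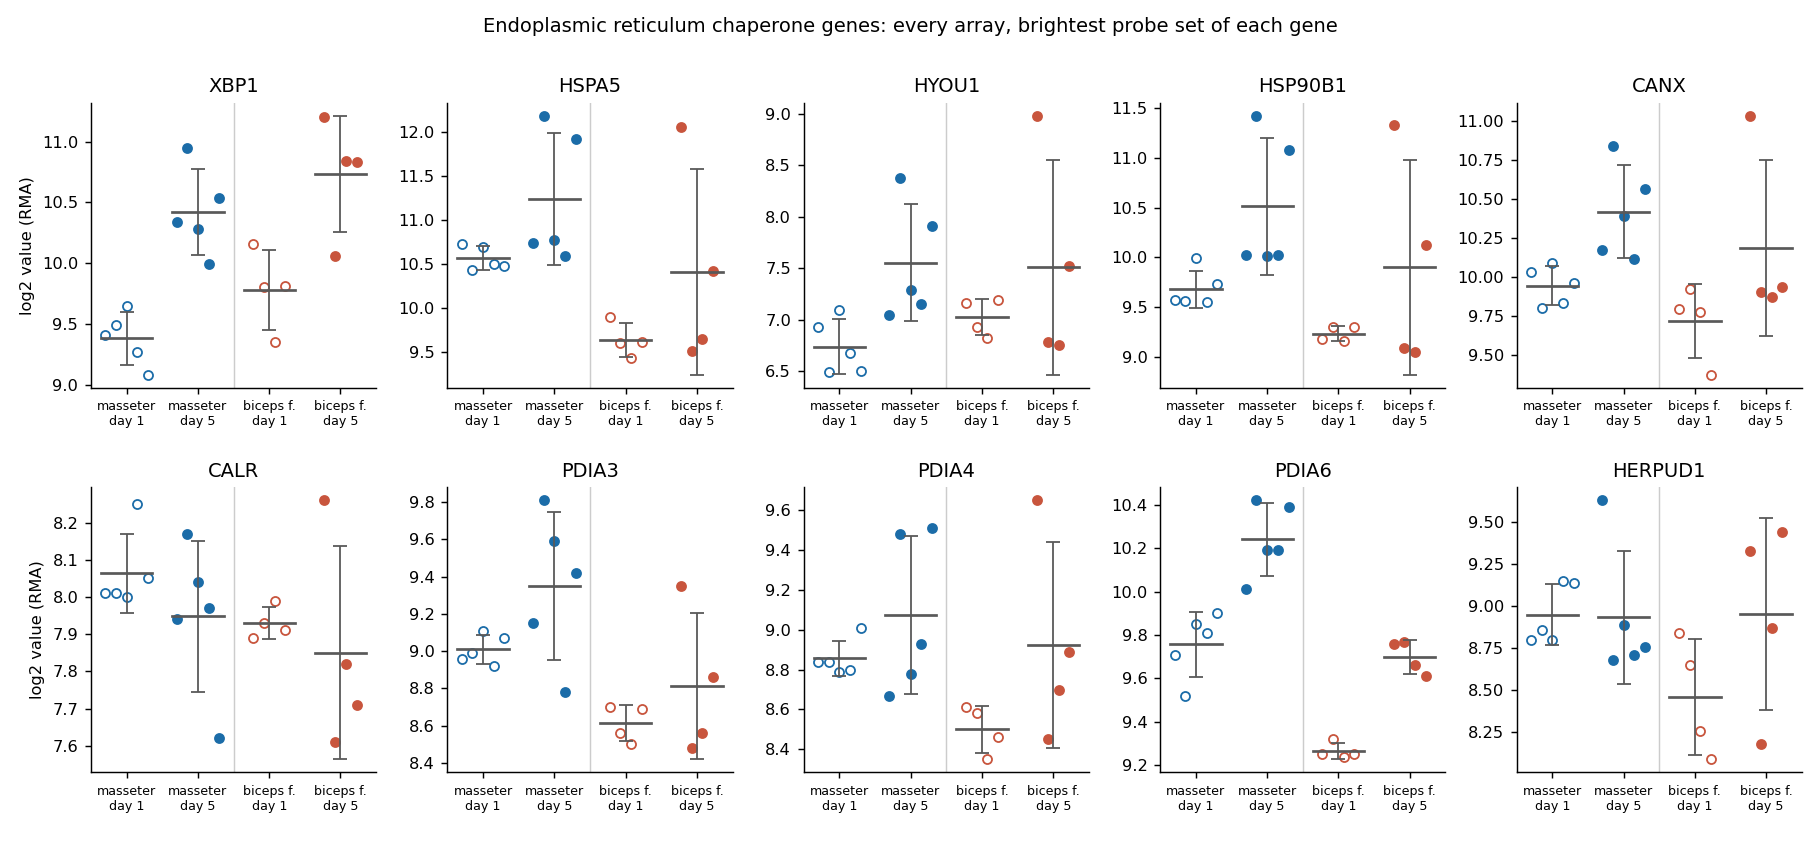
Log2 intensity of the 10 genes on every array, with open points for day 1 and filled points for day 5, bars for group means and whiskers for the SD (n = 5 in masseter, n = 4 in biceps femoris); each gene has its own vertical axis. Day 5 points of PDIA6 lie above all day 1 points in both muscles, while those of HSPA5, HSP90B1 and HYOU1 spread widely, up to 12.18, 11.42 and 8.38 in masseter replicate 2.

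XBP1 encodes the transcription factor whose mRNA is spliced by ERN1 when unfolded chains accumulate, and which then activates chaperone and degradation genes. Its masseter values were 9.41, 9.49, 9.65, 9.27 and 9.08 at day 1 and 10.34, 10.95, 10.28, 9.99 and 10.54 at day 5, for replicates 1 to 5. Every day 5 array lay above every day 1 array, and each of the 5 animals was higher at day 5, by between 0.63 and 1.46. The rise was 1.04 (2.06-fold, SE 0.17, 95% interval 0.66 to 1.42, limma adjusted p = 0.00388), the largest among the 10 genes in masseter. In biceps femoris the day 1 values were 10.16, 9.80, 9.35 and 9.81 and the day 5 values 11.20, 10.06, 10.84 and 10.83. Replicates 1, 3 and 4 at day 5 were above all day 1 arrays, and replicate 2 lay inside the day 1 range. The rise was 0.95 (1.93-fold, SE 0.25, 95% interval 0.37 to 1.53, limma adjusted p = 0.0345). This call was lost when any of 6 of the 8 arrays was left out (all but day 1 replicate 1 and day 5 replicate 2), with changes of 0.79 to 0.96 and limma adjusted p from 0.0617 to 0.0918, and with the spike-in sets as a block (0.92, limma adjusted p = 0.303). The files do not say whether the probe set separates the spliced from the unspliced message. Its title in the files names a pseudogene, although its gene identifier is that of XBP1 in RefSeq.

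HSPA5, also known as BiP, is the Hsp70 of the ER and keeps the stress sensors inactive while it is bound to them. In masseter its values were 10.73, 10.43, 10.70, 10.50 and 10.48 at day 1 and 10.74, 12.18, 10.77, 10.59 and 11.92 at day 5. Replicates 2 and 5 stood 3.05-fold and 2.56-fold above the day 1 mean, while replicates 1, 3 and 4 differed from it by at most 0.21. All 5 animals were higher at day 5 than at day 1, but the median difference within an animal was 0.10 and the highest 1.75. The mean change was 0.67 (SE 0.30, 95% interval 0.01 to 1.33, limma adjusted p = 0.165). In biceps femoris the day 1 values were 9.90, 9.61, 9.44 and 9.62 and the day 5 values 12.05, 9.52, 9.65 and 10.42. Replicate 1 was 5.3-fold above the day 1 mean, replicate 4 was above every day 1 array by less, and replicates 2 and 3 lay within the day 1 range. The mean change was 0.77 (SE 0.50, 95% interval -0.37 to 1.91, limma adjusted p = 0.357).

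HYOU1, the large Hsp70 relative that exchanges the nucleotide of HSPA5, read 6.93, 6.49, 7.09, 6.68 and 6.50 in masseter at day 1 and 7.04, 8.38, 7.29, 7.15 and 7.91 at day 5. Replicates 2 and 5 were again the highest, and only replicate 1 lay within the day 1 range. The change was 0.82 (1.76-fold, SE 0.25, 95% interval 0.26 to 1.37, limma adjusted p = 0.054), and it passed the threshold without day 5 replicate 1 (0.94, limma adjusted p = 0.0248), with array weights (adjusted p = 0.0191) and with the dimmest 25% of probe sets left out (adjusted p = 0.0438). In biceps femoris the values were 7.16, 6.93, 6.82 and 7.19 at day 1 and 8.98, 6.78, 6.75 and 7.52 at day 5. Here replicates 2 and 3 lay below all day 1 arrays and replicates 1 and 4 above them. The change was 0.48 (SE 0.45, 95% interval -0.55 to 1.52, limma adjusted p = 0.537). A second, dimmer HYOU1 probe set went the other way in masseter, from 5.16, 5.37, 5.25, 5.68 and 5.22 at day 1 to 5.01, 5.07, 4.86, 4.94 and 5.11 at day 5. Its day 5 arrays all lay below its day 1 arrays, with a change of -0.34 (95% interval -0.58 to -0.10, limma adjusted p = 0.0591).

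HSP90B1, or GRP94, is the Hsp90 of the ER and folds a restricted set of clients that includes integrins and Toll-like receptors. Masseter values were 9.57, 9.56, 9.99, 9.55 and 9.73 at day 1 and 10.03, 11.42, 10.01, 10.02 and 11.08 at day 5. The groups did not overlap, although replicates 1, 3 and 4 at day 5 (10.01 to 10.03) only just exceeded the highest day 1 array (9.99). The change was 0.83 (1.78-fold, SE 0.28, 95% interval 0.22 to 1.45, limma adjusted p = 0.074), and it passed the threshold with array weights (adjusted p = 0.0324) and without day 5 replicate 1 (0.95, adjusted p = 0.0431). In biceps femoris the values were 9.18, 9.30, 9.16 and 9.30 at day 1 and 11.33, 9.09, 9.05 and 10.13 at day 5. Replicate 1 was 4.26-fold above the day 1 mean, replicate 4 was also above day 1, and replicates 2 and 3 were below all day 1 arrays. The change was 0.66 (SE 0.46, 95% interval -0.39 to 1.71, limma adjusted p = 0.391). A second HSP90B1 probe set changed by 0.91 in masseter (adjusted p = 0.0654) and by 0.78 in biceps femoris (adjusted p = 0.264), and another, with values near the bottom of the scale, by -0.13 and -0.02.

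CANX, a membrane-bound lectin chaperone, and CALR, its soluble counterpart in the lumen, bind newly made glycoproteins. CANX read 10.03, 9.80, 10.09, 9.83 and 9.96 in masseter at day 1 and 10.17, 10.84, 10.39, 10.11 and 10.56 at day 5. All day 5 arrays were above all day 1 arrays (lowest 10.11, against a highest day 1 value of 10.09), and all 5 animals were higher at day 5. The rise of 0.47 (1.39-fold, SE 0.14, 95% interval 0.17 to 0.78, limma adjusted p = 0.0454) was called by a narrow margin. With the animal as a block the adjusted p was 0.0906, and the call was lost without any of 8 of the 10 arrays (all but day 5 replicates 1 and 4), with limma adjusted p from 0.0552 to 0.104. In biceps femoris CANX read 9.79, 9.92, 9.77 and 9.37 at day 1 and 11.03, 9.90, 9.87 and 9.93 at day 5. Replicate 1 stood 1.32 above the day 1 mean and the other 3 between 0.16 and 0.21, for a mean change of 0.47 (SE 0.27, 95% interval -0.14 to 1.08, limma adjusted p = 0.29). None of the 5 other CANX probe sets was called. Their changes ran from -0.08 to 0.39 in masseter and from -0.01 to 0.68 in biceps femoris.

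CALR did not share these values. It read 8.01, 8.01, 8.0, 8.25 and 8.05 in masseter at day 1 and 7.94, 8.17, 8.04, 7.97 and 7.62 at day 5. The groups overlapped, and the change was -0.12 (SE 0.11, 95% interval -0.35 to 0.12, limma adjusted p = 0.516). Biceps femoris arrays read 7.89, 7.93, 7.99 and 7.91 at day 1 and 8.26, 7.61, 7.82 and 7.71 at day 5. Replicate 1 was above and the other 3 were below every day 1 array, for a change of -0.08 (95% interval -0.40 to 0.24, limma adjusted p = 0.763). A second probe set under this name, which the pig annotation titles as similar to another protein and which is therefore uncertain, changed by -0.33 in masseter (adjusted p = 0.139) and by -0.32 in biceps femoris (adjusted p = 0.52).

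PDIA3, or ERp57, is the disulfide isomerase that works with both lectin chaperones. Its masseter values were 8.96, 8.99, 9.11, 8.92 and 9.07 at day 1 and 9.15, 9.81, 9.59, 8.78 and 9.42 at day 5. Replicate 4 lay below and the other 4 above all day 1 arrays, so the groups overlapped. The change was 0.34 (SE 0.17, 95% interval -0.03 to 0.71, limma adjusted p = 0.208), and without replicate 4 of day 5 it was 0.48 and passed the threshold (limma adjusted p = 0.0415). Biceps femoris values were 8.70, 8.56, 8.50 and 8.69 at day 1 and 9.35, 8.48, 8.56 and 8.86 at day 5, with a change of 0.20 (95% interval -0.22 to 0.62, limma adjusted p = 0.527). Replicates 1 and 4 were above day 1 and the others were not. The 3 further PDIA3 probe sets had changes from -0.14 to 0.39 in masseter and from 0.01 to 0.47 in the limb muscle, and none was called.

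PDIA6, or P5, is a disulfide isomerase that associates with HSPA5, and it gave the most even pattern of the 10 genes. In masseter it read 9.71, 9.52, 9.85, 9.81 and 9.90 at day 1 and 10.01, 10.42, 10.19, 10.19 and 10.39 at day 5. In biceps femoris it read 9.25, 9.32, 9.24 and 9.25 at day 1 and 9.76, 9.77, 9.66 and 9.61 at day 5. No day 5 array overlapped with day 1 in either muscle, and all 5 animals were higher in masseter. The rise was 0.48 in masseter (1.4-fold, SE 0.11, 95% interval 0.25 to 0.72, limma adjusted p = 0.0149). The rise in biceps femoris was 0.44 (1.35-fold, SE 0.08, 95% interval 0.26 to 0.61, limma adjusted p = 0.00546). In the authors' deposited table for biceps femoris, PDIA6 and XBP1 have adjusted p of 0.00559 and 0.0354, and HSPA5 has 0.361. Both masseter and biceps femoris calls held without any single array, but with the spike-in sets as a block the biceps femoris rise was 0.45 with limma adjusted p = 0.0868.

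PDIA4, or ERp72, a disulfide isomerase with an additional thioredoxin-like domain, gave different answers by probe set. The brightest read 8.84, 8.84, 8.79, 8.80 and 9.01 in masseter at day 1 and 8.67, 9.48, 8.78, 8.93 and 9.51 at day 5, a change of 0.22 (95% interval -0.15 to 0.59, limma adjusted p = 0.417). Replicates 2 and 5 were above all day 1 arrays and the other 3 were not. For biceps femoris it read 8.61, 8.58, 8.35 and 8.46 at day 1 and 9.65, 8.45, 8.70 and 8.89 at day 5, a change of 0.42 (95% interval -0.11 to 0.95, limma adjusted p = 0.275), with 3 of 4 day 5 arrays above day 1. A second PDIA4 probe set read 6.97, 7.19, 6.90, 6.84 and 6.80 in masseter at day 1 and 7.14, 7.97, 7.68, 7.31 and 8.06 at day 5. It rose by 0.69 (1.62-fold, SE 0.18, 95% interval 0.30 to 1.08, limma adjusted p = 0.0266), with only replicate 1 inside the day 1 range. In biceps femoris the same probe set read 8.23, 8.03, 8.01 and 8.07 at day 1 and 9.71, 8.46, 8.73 and 8.70 at day 5. All 4 day 5 arrays were above day 1, with a change of 0.81 (95% interval 0.25 to 1.37, limma adjusted p = 0.0546). Counted by probe set, 4 of the 24 were called higher in masseter, against 7.31% of all probe sets tested, and 2 of the 24 in biceps femoris, against 9.89%.

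HERPUD1 is an ER membrane protein that helps to gather the complex for degradation of misfolded proteins. In masseter it read 8.80, 8.86, 8.80, 9.15 and 9.14 at day 1 and 9.63, 8.68, 8.89, 8.71 and 8.76 at day 5. Replicate 1, which lay near the day 1 level for HSPA5, was the highest here, and only 2 of 5 animals were higher at day 5. The change was -0.02 (SE 0.18, 95% interval -0.41 to 0.38, limma adjusted p = 0.964). In biceps femoris it read 8.84, 8.65, 8.26 and 8.09 at day 1 and 9.33, 8.18, 8.87 and 9.44 at day 5. Replicates 1, 3 and 4 were above all day 1 arrays and replicate 2 was not, for a change of 0.50 (SE 0.29, 95% interval -0.17 to 1.16, limma adjusted p = 0.303).

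**Figure D2:**
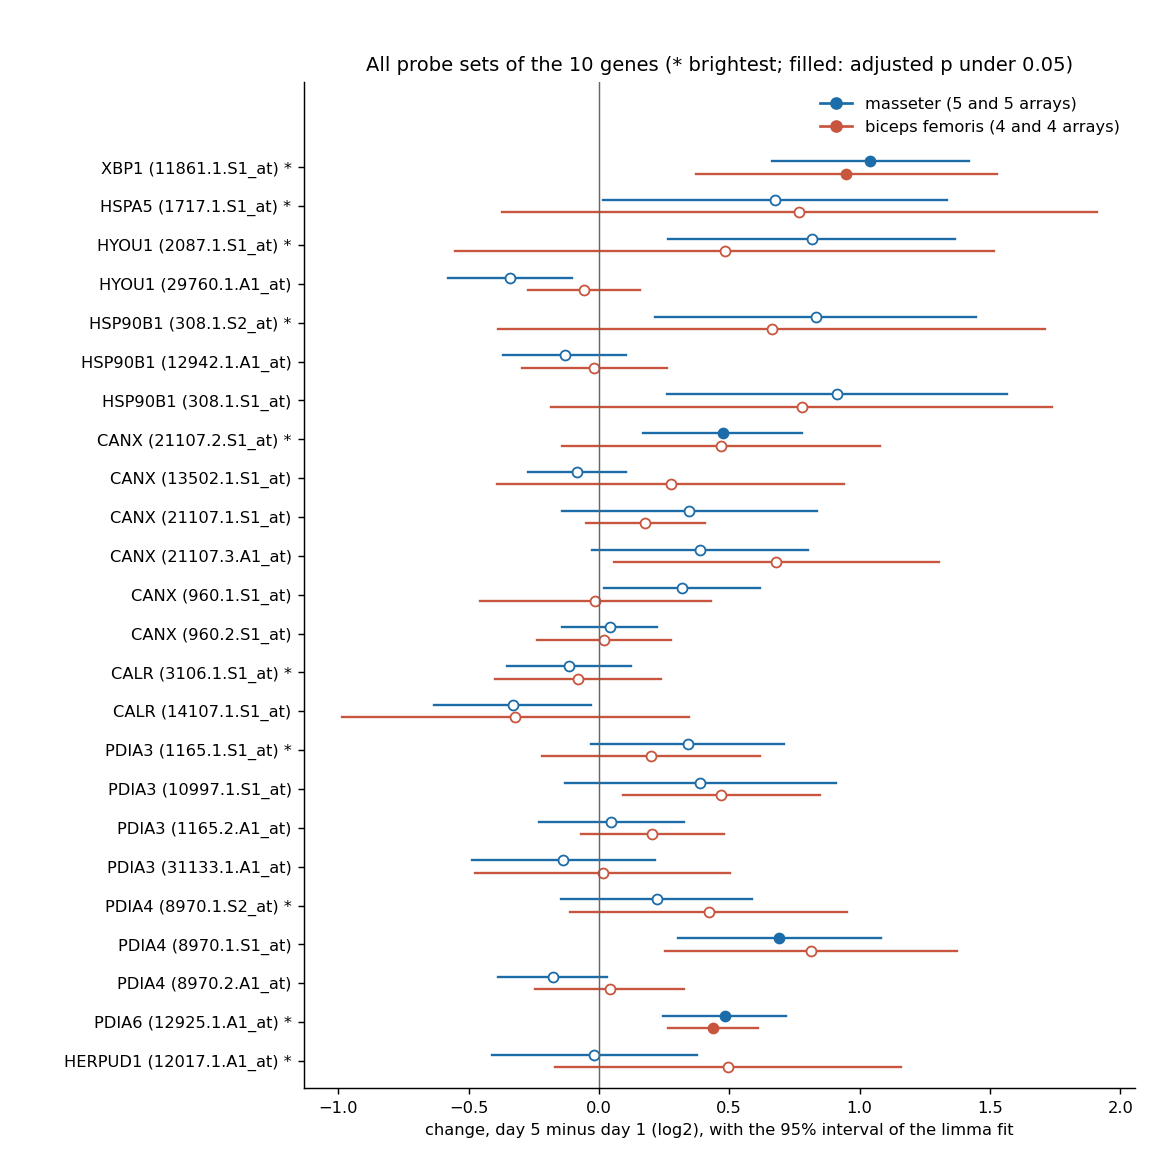
Day 5 minus day 1 (log2) for all 24 probe sets of the 10 genes in each muscle, with 95% intervals; filled points were called at limma adjusted p under 0.05 and an asterisk marks the brightest probe set of each gene. In masseter 4 of the 24 probe sets were called higher (XBP1, PDIA6, CANX and PDIA4) and in biceps femoris 2 (XBP1 and PDIA6).

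Across the day 5 arrays, HSPA5, HSP90B1 and HYOU1 spread more widely than most probe sets. The SD of HSPA5 was 0.138 at day 1 and 0.747 at day 5 in masseter, and 0.191 and 1.16 in biceps femoris. Over all probe sets the median SD was 0.172 at day 1 and 0.213 at day 5 in masseter, and 0.157 and 0.191 in biceps femoris. A day 5 SD as large as that of HSPA5 was found in 3.82% of probe sets in masseter and 1.15% in biceps femoris. The corresponding shares were 5.13% and 1.46% for HSP90B1 and 8.53% and 1.63% for HYOU1. CALR, with an SD of 0.204 in masseter at day 5, was near the median of all probe sets. PDIA6 lay at the other end, with SD of 0.151 and 0.170 in masseter and 0.0354 and 0.0792 in biceps femoris.

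The arrays with high HSPA5 were also those with high HSP90B1 and HYOU1. In masseter, replicate 2 stood 3.05-fold (HSPA5), 3.33-fold (HSP90B1) and 3.12-fold (HYOU1) above the day 1 mean. Replicate 5 stood 2.56-fold, 2.63-fold and 2.26-fold above it, for the same 3 genes in that order. In biceps femoris, replicate 1 stood 5.3-fold, 4.26-fold and 3.89-fold above the day 1 mean. Without it the biceps femoris changes of these genes were 0.22, 0.19 and -0.01. Masseter replicate 2 held the highest day 5 value for 8 of the 10 genes, against 16.1% of all probe sets, and biceps femoris replicate 1 for 8 of 10, against 27.5%. On biceps femoris replicate 1 all 10 genes exceeded every day 1 array, against 32.4% of all named genes, and on replicate 4 the count was 9, against 32.1%. On replicate 3 it was 4 (32.6%), and on replicate 2 only PDIA6 did so (31.9%). In masseter the counts were 7, 8, 7, 5 and 8 for replicates 1 to 5, against 26.1% to 30.5% of named genes. The numbers do not tie animals between muscles, and these counts describe the arrays with no test. The median intensity of all arrays lay between 6.09 and 6.16. The actin 3′ minus 5′ difference, a measure of RNA integrity, was 1.59 on biceps femoris day 5 replicate 1, between 1.11 and 1.13 on the other day 5 arrays of that muscle and between 1.37 and 1.65 at day 1. Its part in the values of replicate 1 was not tested.

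**Figure D3:**
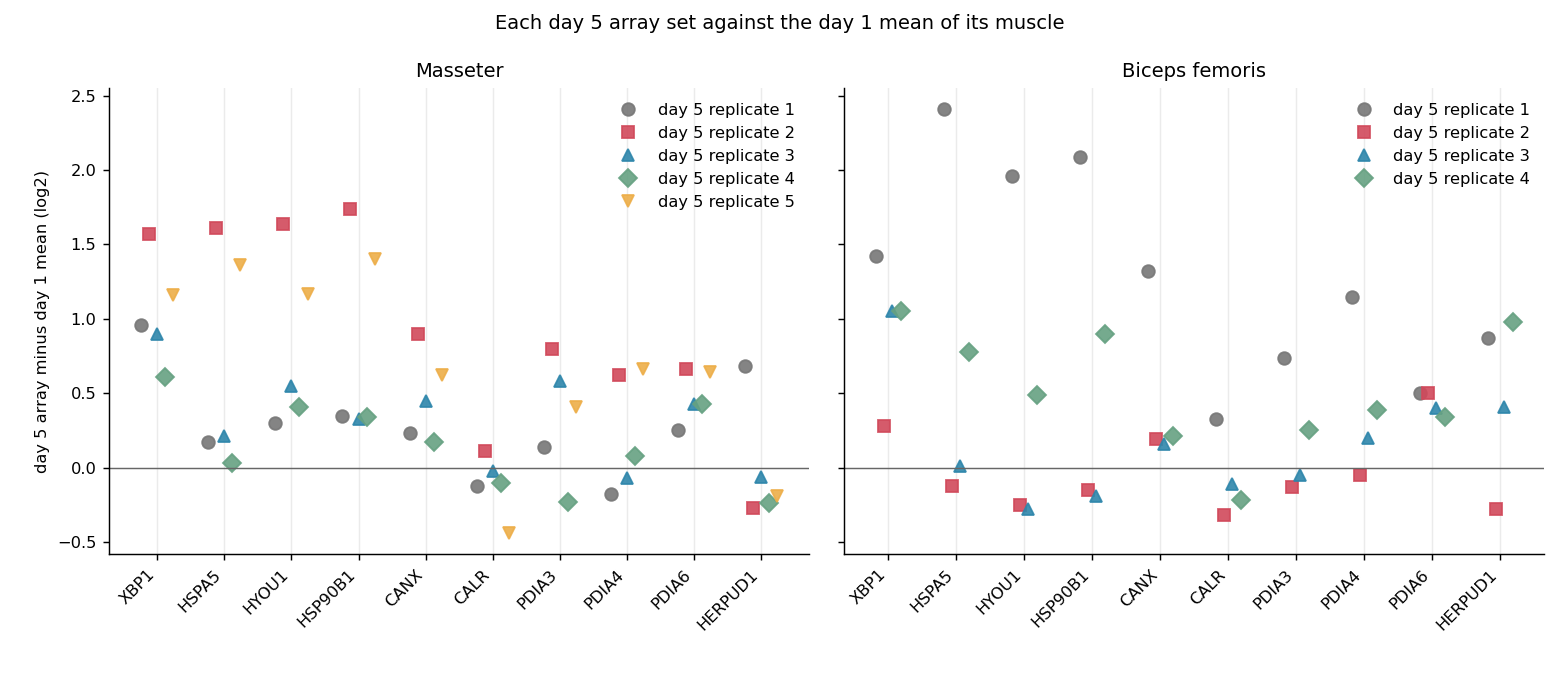
Each day 5 array minus the day 1 mean of its muscle (log2) for the 10 genes, with a marker for each replicate number, which does not tie animals between muscles. Masseter replicates 2 and 5 and biceps femoris replicate 1 lie highest for HSPA5, HYOU1 and HSP90B1, whereas the replicates lie close together for PDIA6.

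Whether the muscles changed differently was tested as the change in masseter minus the change in biceps femoris, over all 18 arrays. None of the 10 genes was called, against 0.272% of all named genes called. None of the 10 passed at an unadjusted p under 0.05 in limma either. The interval was narrowest for PDIA6, at 0.05 (95% interval -0.23 to 0.33, limma adjusted p = 0.925). For XBP1 the difference was 0.09 (-0.57 to 0.75), for CANX 0.00 (-0.62 to 0.63) and for CALR -0.04 (-0.40 to 0.33). The widest intervals were those of HSPA5 (-1.35 to 1.16), HSP90B1 (-0.99 to 1.33) and HYOU1 (-0.77 to 1.44). HERPUD1 had the largest difference, -0.51 (-1.24 to 0.21, limma adjusted p = 0.589), with a change of -0.02 in masseter and 0.50 in biceps femoris. The test took the arrays of both muscles as independent, although the series text says that the biceps femoris animals were among those of the masseter.

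The direct partners of HSPA5 were examined next. Of 16 co-chaperones and folding factors with a probe set, 3 rose and none fell in masseter, and 4 rose and 1 fell in biceps femoris, with median changes of 0.26 and 0.37. In masseter these were the J-domain proteins that deliver clients to HSPA5, namely SEC63 (1.53-fold, adjusted p = 0.0221), DNAJC3 (1.71-fold, adjusted p = 0.0246) and DNAJC1 (1.98-fold, adjusted p = 0.0325). None of the 3 calls held with the animal as a block, where limma adjusted p were 0.0816, 0.0529 and 0.0621. In biceps femoris DNAJC1 rose 2.29-fold (adjusted p = 0.000743), DNAJC3 rose 2.19-fold (adjusted p = 0.00481) and the prolyl isomerase FKBP2 rose 1.67-fold (adjusted p = 0.0169). DNAJC10, a J-domain protein that reduces disulfides, fell by 0.71 (adjusted p = 0.00987). The 4 other DNAJC1 probe sets changed by between -0.20 and 0.18 and were not called. A second DNAJC3 probe set changed by -0.03 in masseter and by 0.30 in biceps femoris (limma adjusted p = 0.845 and 0.021). With the spike-in sets as a block, DNAJC3 and DNAJC10 were among the biceps femoris calls lost, with changes of 1.12 and -0.78.

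Among 14 further disulfide isomerases and oxidative folding genes, 3 rose and 1 fell in masseter and 4 rose in biceps femoris, with median changes of 0.16 and -0.01. P4HB, the classical protein disulfide isomerase, rose 2.84-fold in masseter (adjusted p = 0.000729) and 3.04-fold in biceps femoris (adjusted p = 0.000145) by its brightest probe set, while a second probe set changed by -0.06 and -0.08. ERP29, a folding factor of the same family without the active site, fell by 0.71 in masseter (adjusted p = 0.00404). In biceps femoris ERP44, which retains client proteins in the early secretory pathway, rose 1.62-fold (adjusted p = 0.00121) and the thioredoxin-like TXNDC12 rose 1.91-fold (adjusted p = 0.00471). A second ERP44 probe set changed by 0.08 in biceps femoris and was not called. With the animal as a block 2 of the 4 masseter calls of this list were left. TXNDC5, also called higher in biceps femoris (0.48), lost its call with the spike-in sets as a block (0.27). The lectin cycle, which trims sugars for CANX and CALR, had 1 gene of 12 called in each muscle, MOGS in masseter (0.33, adjusted p = 0.0466, and 0.0879 with the animal as a block) and LMAN2 in biceps femoris (0.52, adjusted p = 0.00277, and not called with the spike-in sets as a block).

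The degradation branch beside HERPUD1 held 19 genes, of which 5 rose and 1 fell in masseter and 7 rose in biceps femoris, with median changes of 0.18 and 0.55. SELENOS, which recruits the extracting ATPase, rose 2.10-fold in masseter (adjusted p = 0.0166) and by 0.84 in biceps femoris (adjusted p = 0.016). UBXN4, which ties the same ATPase to the ER membrane, rose by 0.53 in masseter (adjusted p = 0.0188) and by 0.92 in biceps femoris (adjusted p = 0.000256). NPLOC4, a cofactor of that ATPase, rose 3.01-fold in biceps femoris (adjusted p = 0.000344) and by 0.73 in masseter (adjusted p = 0.0495). The channel component DERL2 rose 1.89-fold in biceps femoris (adjusted p = 0.000552) by its brightest probe set. A second DERL2 probe set changed by -0.02 there and was not called. DERL3, a relative of DERL2, fell by 0.45 in masseter (adjusted p = 0.0431). The masseter count of 6 became 3 with the animal as a block. With the spike-in sets as a block UBXN4, NPLOC4 and DERL2 kept their biceps femoris calls, and the other genes called there did not.

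Of 20 genes of the unfolded protein response and its outcomes, a list that holds sensors, transcription factors, proteases, phosphatase subunits and cell death regulators, 4 rose and 1 fell in masseter and 3 rose in biceps femoris, with median changes of 0.25 and 0.20. ATF4, the transcription factor translated when eIF2α is phosphorylated, rose 1.83-fold in masseter (adjusted p = 0.00186) and 1.50-fold in biceps femoris (adjusted p = 0.00783) by its brightest probe set. A second ATF4 probe set changed by 0.09 and 0.21 and was not called. PPP1R15A, which directs a phosphatase to eIF2α, rose 1.61-fold in masseter (adjusted p = 0.000737) and changed by 0.76 in biceps femoris (adjusted p = 0.261). NFE2L1, an ER-bound activator of proteasome genes, rose 2.09-fold in masseter (adjusted p = 0.00338) and 1.72-fold in biceps femoris (adjusted p = 0.0199). DNAJB2, a cytosolic J-domain protein that hands clients to the proteasome, rose 2.27-fold (adjusted p = 0.00347) and 3.17-fold (adjusted p = 0.000759). The mRNA of the sensors themselves, named here after their values were seen, was not called, with masseter changes of 0.00 for ERN1, 0.04 for ATF6 and 0.02 for EIF2AK3 and biceps femoris changes of -0.03, 0.20 and -0.03. These probe sets were dim, with mean levels at percentiles 32.8, 15.6 and 4.7 of all probe sets. With the animal as a block 4 of the 5 masseter calls of this list were left. With the spike-in sets as a block the biceps femoris calls of ATF4 and NFE2L1 were lost, with changes of 0.33 and 0.93.

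Of 29 genes for import into the ER (the translocon, signal peptidase and oligosaccharyltransferase), 2 rose in masseter and 8 in biceps femoris, with median changes of 0.09 and 0.29. None was lower by its brightest probe set. RPN2, named here after its values were seen, gave calls in opposite directions. Its brightest probe set changed by 0.41 in biceps femoris (adjusted p = 0.0181). A second changed by -0.59 there (adjusted p = 0.0158) and by -0.39 in masseter (adjusted p = 0.0354). SPCS3, a subunit of the signal peptidase, rose 2.73-fold in masseter (adjusted p = 0.0018) and 4.13-fold in biceps femoris (adjusted p = 0.000228). TRAM2, a translocon partner, rose 2.01-fold in masseter (adjusted p = 0.00189) and by 1.49 in biceps femoris (adjusted p = 0.00419). The signal recognition particle subunit SRP68 rose 2.33-fold in biceps femoris (adjusted p = 0.000319). With the spike-in sets as a block 5 of the 8 biceps femoris calls were left. No gene of these lists was called in the difference between the muscles.

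**Figure D4:**
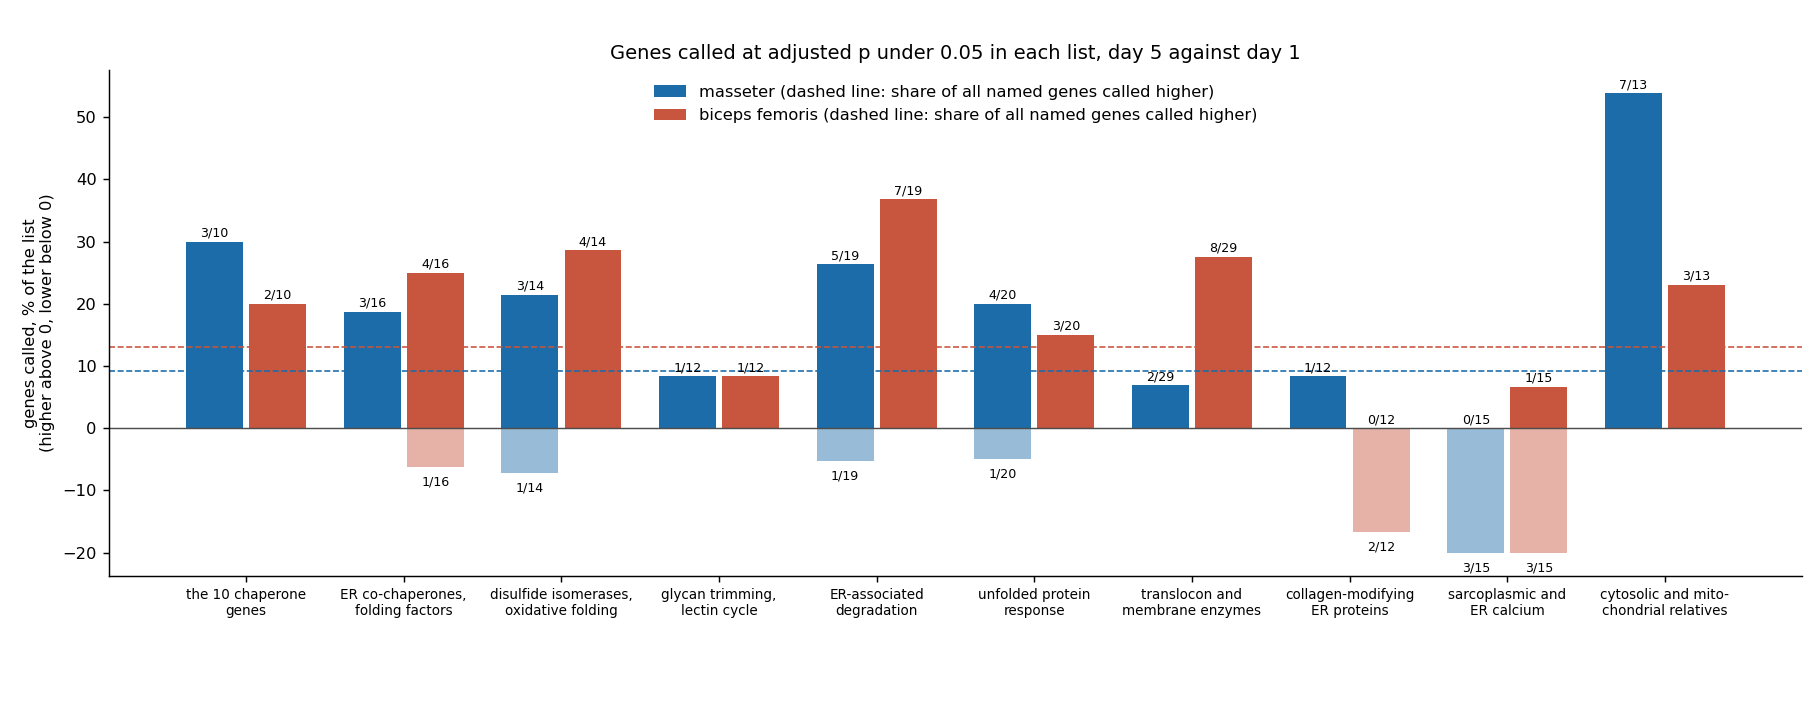
Share of each gene list called higher (above 0) or lower (below 0) at day 5, in percent, for masseter and biceps femoris, with the number called over the number measured on each bar; dashed lines mark the share of all named genes called higher, 9.22% in masseter and 13% in biceps femoris. In masseter the cytosolic and mitochondrial relatives reach the highest share, 7 of 13 genes, against 3 of the 10 ER chaperone genes.

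Relatives of the 10 genes outside the ER were examined last. Of 13 cytosolic and mitochondrial chaperones and thioredoxin, 7 rose in masseter and 3 in biceps femoris, and none fell, with median changes of 0.67 and 0.65. HSP90AB1, the constitutive cytosolic relative of HSP90B1, rose 2.35-fold in masseter (adjusted p = 0.000869) and 2.51-fold in biceps femoris (adjusted p = 0.00331) by its brightest probe set. A second HSP90AB1 probe set changed by 0.06 and 0.25 and was not called. HSPA2, a cytosolic relative of HSPA5, rose 7.82-fold (adjusted p = 0.00134) and 7.28-fold (adjusted p = 0.00261). Probes of this family may share near-identical copies, so the gene behind the HSPA2 values is uncertain. HSPH1, the cytosolic counterpart of HYOU1, rose 4.98-fold in masseter (adjusted p = 0.0151) and changed by 1.50 in biceps femoris (adjusted p = 0.414). The masseter call was lost in the fit of all 18 arrays (limma adjusted p = 0.0583). A second HSPH1 probe set changed by -0.09 and -0.02 and was not called. TXN, the cytosolic thioredoxin, rose 3.23-fold (adjusted p = 0.0058) and 3.66-fold (adjusted p = 0.000415). By their brightest probe sets, others stayed below the threshold in both muscles. Among them were the mitochondrial Hsp70 HSPA9 (-0.01 and 0.35), the mitochondrial chaperonin HSPD1 (0.06 and 0.36) and the mitochondrial Hsp90 TRAP1 (-0.34 and -0.08). Another HSPA9 probe set rose by 0.63 in biceps femoris (limma adjusted p = 0.0077) and changed by 0.06 in masseter. The authors' deposited list of 89 genes that were over 2-fold higher in biceps femoris names none of the 10 ER genes. None of the 10 rose over 2-fold there (XBP1 rose most, 1.93-fold), so their absence says nothing further about them. It names HSPA2 (7.28-fold) and HSP90AB1 (2.51-fold). From the ER lists above it also names the co-chaperone DNAJC1 (2.29-fold) and the import gene SRP68 (2.64-fold). The brightest SRP68 probe set gave 2.33-fold here, so the 2 values are not the same measure. The masseter count of 7 became 5 with the animal as a block. With the spike-in sets as a block the biceps femoris calls of HSPA2 and HSP90AB1 were lost, with changes of 2.08 and 1.38.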

How the data were processed

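The authors had deposited log2 intensities of 18 arrays made with RMA, per the submitters' processing notes. These were used as deposited. For biceps femoris the authors' deposited table adds per probe set, per the file headers, a log2 fold change, the adjusted p-value and a score, the B-statistic (log odds of change). A deposited list gives linear fold values of genes over 2-fold, per the file headers. Further settings of RMA are not given in the sources used here.

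Affymetrix controls (124 of 24123 probe sets) did not enter the tests. Genes were named from the pig annotation and the human homolog column with older symbols updated; 23550 probe sets had 1 name, 91 several and 358 none. Sorted values differed by at most 0.230 between masseter arrays, at most 0.237 between biceps femoris arrays and at least 0.541 between muscles, so each muscle was fitted alone in R 4.3.3 with the two-sided moderated test of limma 3.58.1, and the difference in 1 fit of all 18 arrays in 4 groups. The fit was tested on simulated data.

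The genes and lists were chosen with earlier results of these data known. From each list the 4 genes of smallest p in each muscle could be named if called, and any of the cytosolic and mitochondrial relatives. Masseter numbers mark animals, per the labels. Same-numbered masseter arrays deviated from their group means with correlations of -0.03 to 0.12 across probe sets. For day 1 replicates 1, 3 and 5 a day 5 array of another number correlated better, at 0.05, 0.10 and 0.14. Where nothing names the animals, p-values measure only the spread between arrays. Alternatives were a further quantile normalization, leaving out the dimmest 25% of probe sets, a trended robust variance prior, array weights, the replicate number or the spike-in sets as a block, 1 fit of all arrays, any probe set of a gene, the authors' table, and leaving out each array. The list counts and list genes under these settings were added after seeing the data. The breed is wild boar in a tag and domestic in the protocols.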

Additional observations from a re-analysis of the deposited data

Results flagged for a closer look

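Dixon's test for a single outlying array was applied to the 10 ER genes in each of the 4 groups, 40 sets of values, of which chance gives about 1 in 20. It picked out 5 values. CANX read 11.03 on biceps femoris day 5 replicate 1, far above the other 3 arrays of that group. HERPUD1 read 9.63 on masseter day 5 replicate 1, above the other 4. CALR read 8.25 on masseter day 1 replicate 4, PDIA4 read 9.01 on masseter day 1 replicate 5 and PDIA6 read 9.32 on biceps femoris day 1 replicate 2, each the highest of its group. HSPA5, HSP90B1 and HYOU1 were not among them, and in each muscle another day 5 array beside the highest lay above day 1.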

How the results depend on the processing

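Over the settings other than leaving out an array, 180 results on single members kept their direction and their side of the threshold, 3 passed it, 5 lost it and 2 turned. With array weights 5 members were called in masseter, a count given without the share of all named genes under those weights. Under the same weights the HSPA5 and CALR differences between muscles turned to 0.29 and 0.014. With the spike-in sets as a block 0 members (1 at an unadjusted p under 0.05) and 1306 probe sets were called by limma in biceps femoris, against 2 and 4117. Probe sets called in the difference numbered 48, and 17 after quantile normalization, 24 with the trended prior and 527 with array weights. With the replicate block no probe set was called in the difference (0), 2356 against 3318 were called in masseter and 3041 against 4117 in biceps femoris, and 2 members in each muscle; CANX in masseter was the member call that the block ended. Biceps femoris arrays of the same number correlated at -0.21 to 0.11 and none correlated best with its own number. Leaving out each array in turn gave 2 to 5 members (5 without day 5 replicate 1) and 2047 to 4628 probe sets in masseter, 1 to 2 members in biceps femoris and 9 to 266 probe sets in the difference. Directions turned within these ranges for CALR (-0.22 to 0.0009) and HYOU1 (-0.0101 to 0.74) in biceps femoris, HERPUD1 in masseter (-0.19 to 0.0453), and the differences of CALR (-0.12 to 0.10), CANX (-0.10 to 0.29), HSP90B1 (-0.11 to 0.65), HSPA5 (-0.39 to 0.45), PDIA4 (-0.36 to 0.0429), PDIA6 (-0.014 to 0.10) and XBP1 (-0.13 to 0.25). None of these values was called, and the cause was not tested. Of the calls of list genes named by the rule, 11 of 30 in masseter were lost with the replicate block and 15 of 29 in biceps femoris with the spike-in sets as a block, and none reversed. Scanner files were not used here, so background correction was not varied.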

Other observations

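Values by array are given for 4 further ER genes, chosen after their values were seen and described without a test. MANF, a secreted ER stress factor that binds HSPA5, lay 1.57 and 1.33 above the day 1 mean on masseter replicates 2 and 5 and between -0.18 and 0.22 from it on the other 3. In biceps femoris it lay 1.88 above on replicate 1 and between 0.11 and 0.70 on the others. Its mean changes of 0.63 and 0.78 were not called (limma adjusted p = 0.213 and 0.168). ATF3, a stress-induced transcription factor, was 4.84 above the day 1 mean on masseter replicate 5 and at most 0.78 above it on the others. Relative to the day 1 mean it lay at 4.56 and 3.79 on biceps femoris replicates 1 and 4, and at -1.90 and -2.24 on replicates 2 and 3. DDIT3, the transcription factor CHOP, was 2.25 and 1.92 above on the same biceps femoris arrays and -0.24 and -0.89 on the others. In masseter DDIT3 lay 1.57 above on replicate 2 and between 0.34 and 0.51 above on the others, lowest on replicate 5, where HSPA5 was high. Neither ATF3 nor DDIT3 was called in either muscle. The collagen chaperone SERPINH1 was 3.31 above on biceps femoris replicate 1, against -0.77 to 0.35 on the others, and in masseter 1.62 above on replicate 2, against -0.16 to 0.53.

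Calcium proteins of the sarcoplasmic and endoplasmic reticulum moved downward where called, apart from SDF4. Of 15 such genes, 3 fell and none rose in masseter (median change -0.27), and 3 fell and 1 rose in biceps femoris (median -0.49). ATP2A2, the calcium pump of slow fibres, fell by 0.85 in masseter (limma adjusted p = 0.00116) and by 1.98 in biceps femoris (adjusted p = 0.00545). The slow-fibre markers MYH7, TNNI1 and TNNT1 changed by -2.94, -3.47 and -3.82 in biceps femoris (all called) and by -0.24, -0.49 and -0.50 in masseter (TNNT1 called), and their part in the ATP2A2 values was not tested. HRC, a calcium-binding protein of the lumen, fell by 1.28 in masseter (adjusted p = 0.00126), and ATP2A1, the pump of fast fibres, by 1.65 (adjusted p = 0.014). CASQ2, the cardiac and slow-fibre calsequestrin, fell by 1.80 in biceps femoris (adjusted p = 0.0108) by its brightest probe set. Its other probe sets differed. In biceps femoris 1 fell by 1.62 (limma adjusted p = 0.0139). Another fell by 1.06 in masseter (limma adjusted p = 0.014) and changed by -0.13 in biceps femoris, and a further one changed by -0.09 and 0.03. SDF4 rose by 0.41 in biceps femoris (adjusted p = 0.024). With the spike-in sets as a block none of the 4 biceps femoris calls was left, while all 3 masseter calls held with the animal as a block. Of 12 collagen-modifying genes, P4HA1 rose 2.02-fold in masseter (adjusted p = 0.0222), and CRTAP fell by 0.45 (adjusted p = 0.0123) and FKBP10 by 0.96 (adjusted p = 0.0189) in biceps femoris, where 7 of 11 fibroblast markers also fell. Neither fall held with the spike-in sets as a block.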
